A study of Mus musculus with 6 samples.

Results

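A pair of sorted subpopulations of resting mouse muscle stroma was compared, CD140a(+)/Sca1(+) and CD140a(+)/Sca1(-) cells from control legs, with 1 library for each. Every gene whose deposited log2 value reached 6 in at least 1 of the 2 libraries was described, which gave 5378 of 22483 genes. The cells came from Swiss white mice, from the untreated leg opposite to an injured one, and no transgene was named for either group. The study's methods give the animals daily injections of BrdU, which labels dividing cells, without saying which groups these were. The study sorted 3 stromal subpopulations, the 2 named and CD140a(-)/Sca1(+), from control muscle and from muscle on day 3 after 20 uM cardiotoxin, so the series holds 6 libraries. Before the sort, cells that stained for CD45, CD31 or CD11b were gated out, which is meant to remove leukocytes, endothelial cells and myeloid cells. The sample labels name the tibialis anterior as the source muscle, whereas the study's Results name gastrocnemius and soleus for the acute injury. The number of mice pooled into a library was not stated, and the study gave the control CD140a(+)/Sca1(+) sort as its least enriched one.

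CD140a is the alpha receptor for platelet-derived growth factor, encoded by Pdgfra, and is the usual surface marker of fibro-adipogenic precursors, the resident fibroblast-like cells of muscle that make matrix and can turn into fat cells. Sca1 is a small protein tethered to the cell surface by a lipid anchor, encoded by Ly6a in the Ly6 cluster, and is found on many fibroblast progenitors and on capillary endothelium. Fibroblasts that surround nerves, and tendon cells, can carry CD140a as well, so the sort may hold several kinds of stromal cell.

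With 1 library on each side there was no replicate error and no test was possible, for any value given here. The deposited values are variance stabilized log2 values, and they were inverted to normalized counts, the unit of the levels below. The depth was estimated from the spacing of low values, at 2346800 reads for CD140a(+)/Sca1(+) and 3248500 for CD140a(+)/Sca1(-), and 3 reads correspond to 2.65 and 1.93 normalized counts. Folds are ratios of normalized counts. The range in brackets after a fold is the exact 95% interval from counting error alone. It leaves out variation between animals, sorts and library preparations. It was computed from estimated reads rounded to whole numbers, whereas the fold was not, so fold and interval can part at low counts. A gene was called higher or lower where the deposited values differed by at least 3-fold, 1.58 on the log2 scale. That scale compresses the differences of low genes, so a gene not called can still differ by more than 3-fold in normalized counts. Words such as within 3-fold refer to the deposited scale. Differences on the log2 scale are CD140a(+)/Sca1(+) minus CD140a(+)/Sca1(-) throughout.

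The transcripts of the sorted antigens came first, since they bear on the labels. Ly6a stood at 253 normalized counts in the library labelled CD140a(+)/Sca1(+) and at 70.4 in the library labelled CD140a(+)/Sca1(-), 3.59-fold (2.86 to 4.49) higher in the former. In the CD140a(-)/Sca1(+) control library it stood at 5850.0, far above both. Pdgfra did not follow its label: it stood at 26.3 and 33.6 in the libraries with and without Sca1, and at 211 in the CD140a(-)/Sca1(+) control library, where the antigen was selected against. Pdgfra lay below the limit in both CD140a(+) libraries, so it was not among the genes kept. The libraries are named by their labels throughout. In the injured libraries with the same sorts, Pdgfra stood at 1240.0 in the double positive sort, 203 in the sort without Sca1 and 335 in the sort without CD140a. Of the gated antigens, Ptprc (CD45) was at 0.887 normalized counts in CD140a(+)/Sca1(+) and listed at 0 in CD140a(+)/Sca1(-), and Itgam (CD11b) was at 18.5 and 13.5. Pecam1, which encodes the gated CD31, was at 105 in CD140a(+)/Sca1(+) against 19.8 in CD140a(+)/Sca1(-), 5.32-fold (3.53 to 8.11) higher.

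Over the 5378 genes kept, 315 were higher by at least 3-fold in CD140a(+)/Sca1(+), which is 5.86%, and 312 were at least 3-fold lower, which is 5.80%. The median difference was -0.25, so that the middle gene was slightly lower in CD140a(+)/Sca1(+), and 3752 genes (69.8%) lay within 2-fold. After the median was set to 0, the higher share of the called genes went from 50.2% to 66.0%, so the balance between the 2 directions depends on the scaling. The counting interval of the ratio lay beyond 1 for each of the 315 and 312 genes. The limits on level and fold secure this in advance, so it adds nothing to the calls. Close to the limit, Igf2 was just inside on the higher side, with a difference of 1.588, and Ice1 just outside, with 1.578. On the lower side Reln was just inside at -1.585 and Zfp777 just outside at -1.581. The filter kept Tinf2 at 6.0005 and left out Dbn1 at 5.9999. Genes kept through 1 library alone tend to differ between the 2, so counts over lists of kept genes below are descriptions. Each is to be read beside 5.86% higher and 5.80% lower, the shares over all genes kept. In a short list, 1 called gene is close to what these shares give.

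**Figure D1:**
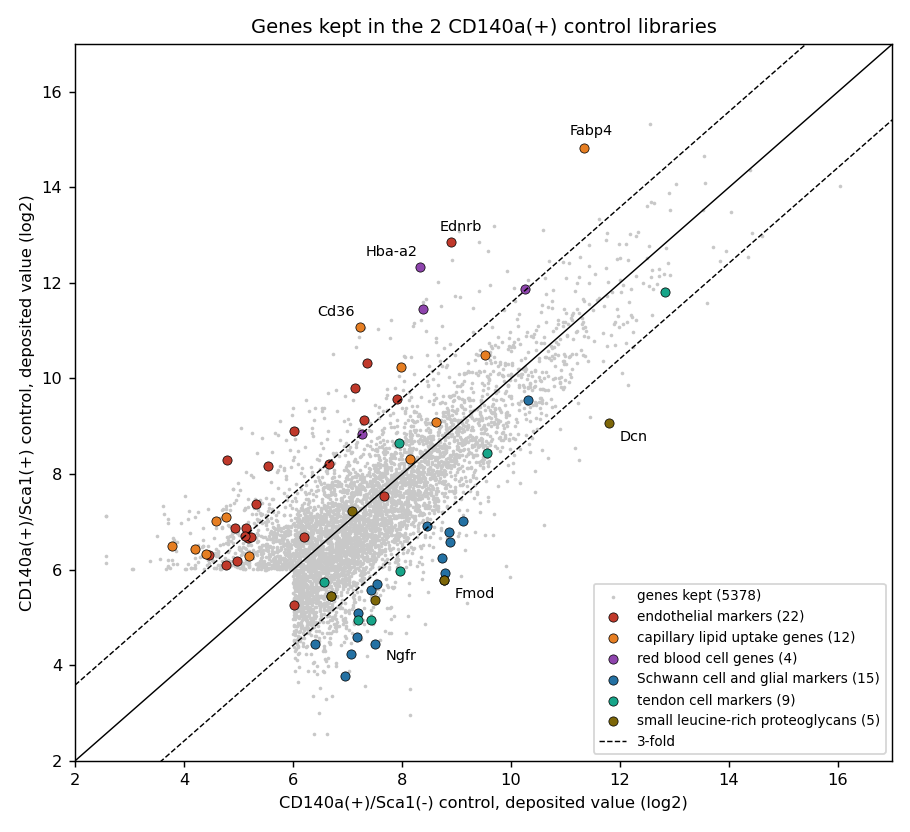
Deposited log2 values of the 5378 genes kept in CD140a(+)/Sca1(-) control (x axis) and CD140a(+)/Sca1(+) control (y axis), 1 library each. Points are genes, colors mark 6 gene lists, the solid line is equality and dashed lines are 3-fold. Endothelial, capillary lipid and red blood cell genes lie mostly above the upper dashed line, whereas Schwann cell genes lie mostly below the lower one.

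The genes with the largest differences were of different kinds on the 2 sides. On the side of CD140a(+)/Sca1(+), the 20 protein-coding genes with the largest differences ranged from 3.45 to 4.55 on the log2 scale. Ednrb, the endothelin B receptor, Cd36 and Fabp4, which take up and carry fatty acids, Sox17, a transcription factor of arterial endothelium, and Hba-a2, an alpha globin, were among them. Lpar6, a lysophosphatidic acid receptor, was at 1453 against 95.1 normalized counts, 15.3-fold (12.9 to 18.2) higher. Ctla2a, a cathepsin inhibitor, was at 2107 against 146, 14.4-fold (12.6 to 16.6) higher. Slc1a1, a glutamate transporter, was 27.3-fold higher and Cdc42bpa, a kinase of the actin skeleton, 22.1-fold higher. The others included Phf8, Nudt16, Zfp473, Unc45b, the ribosomal protein gene Rpl26 and 5 predicted genes with Gm numbers. Tmem140 was at 127 normalized counts in CD140a(+)/Sca1(+) and listed at 0 in CD140a(+)/Sca1(-), at least 65.96-fold higher when 3 reads are allowed in the latter.

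On the other side, the 20 largest differences ranged from -3.06 to -5.18, and this set held glial, fibroblast and signalling genes. Sbk1, a kinase gene, was at 272 normalized counts in CD140a(+)/Sca1(-) and at 0.456 in CD140a(+)/Sca1(+). The latter is below the 0.883 that 1 read is worth there, and it was rounded to 1 read for the interval. The ratio was 596-fold (55.1 to 12216), and the width of the interval shows how little so low a value fixes. Camta1, a transcription activator, was at 273 against 2.57, with a ratio of 106-fold (35.04 to 502). Gfra1, the co-receptor for GDNF, was at 149 against 2.96, with a ratio of 50.3-fold (19.02 to 275) on 3 reads in CD140a(+)/Sca1(+). Its ligand Gdnf was also higher in CD140a(+)/Sca1(-), at 119 against 24.7, 4.83-fold (3.24 to 7.47). Clmp, an adhesion molecule, was at 1540.5 against 111, 13.8-fold (11.6 to 16.7) higher in CD140a(+)/Sca1(-). Zeb2, a transcription factor of mesenchymal and glial cells, was at 952 against 56.3, 16.9-fold (13.1 to 22) higher. Igfbp6, which binds IGF2, was at 333 against 18.5, 17.95-fold (11.6 to 29.3) higher. Nrcam, a neuronal adhesion molecule, Sema3b, a secreted semaphorin, Fxyd6, Hspa12a, Pdzd2, Svil, Plscr1 and Mmp12 completed this side together with genes described below. Among all genes kept, Aimp2 and Plac9b were listed at 0 in CD140a(+)/Sca1(+), and Tmem140, Gm3543, Gm9843 and Vmn1r173 were listed at 0 in CD140a(+)/Sca1(-). Other than Tmem140, these were named after their values were seen.

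Genes of Schwann cells, the glia that wrap peripheral nerve fibers, formed the most one-sided list. Of 26 listed genes 15 were kept, 13 of them were at least 3-fold lower in CD140a(+)/Sca1(+), and none was higher. The median difference of the 15 was -2.103, against -0.25 for all genes kept, and over all 26 measured genes it was -1.85. Gldn (gliomedin), which Schwann cells use to gather sodium channels at nodes, was at 429.8 normalized counts in CD140a(+)/Sca1(-) and 49.4 in CD140a(+)/Sca1(+), 8.69-fold (6.61 to 11.6). Prx (periaxin), which stabilizes myelin, was at 112 against 4.36, 25.6-fold (10.6 to 78.98). Ngfr, the low-affinity neurotrophin receptor of non-myelinating and repair Schwann cells, was at 169.6 against 11.5, 14.8-fold (8.49 to 28.1). Sox10, the transcription factor that defines the glial lineage, was at 73.2 against 11.5, and S100b, a calcium-binding glial protein, at 460.0 against 84.7. The genes called included both myelin and lineage genes. Mbp, the myelin basic protein, was at 339 against 109.6 and Cryab at 1258 against 743, with log2 differences of -1.53 and -0.75 that were not called, although the ratio of normalized counts was 3.09-fold (2.54 to 3.79) for Mbp.

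Glial transcripts were present in both CD140a(+) libraries. The summed list took 0.249% (0.244% to 0.255%) of the normalized counts in CD140a(+)/Sca1(-) and 0.0712% (0.0678% to 0.0747%) in CD140a(+)/Sca1(+), with Wilson 95% intervals. In the CD140a(-)/Sca1(+) control library the share was 0.0278%, and Gldn, Prx and Ngfr stood at 18.6, 8.90 and 0.937 there. In bulk samples such as these, fewer cells of a type and less RNA per cell cannot be told apart. Both libraries were sorted for CD140a, and the part of Schwann cells in the values was not tested.

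Some markers of the fibroblasts that lie within and around nerve bundles were lower too. Of 20 listed genes 7 were kept, 5 were at least 3-fold lower in CD140a(+)/Sca1(+), and the median difference was -2.11 over the kept genes and -0.95 over all 20 measured. In summed counts the list took 0.0828% in CD140a(+)/Sca1(+) and 0.0732% in CD140a(+)/Sca1(-), slightly more in the former. In CD140a(+)/Sca1(+) most of this sum was the single gene Slc2a1. Foxd1, a stromal transcription factor, was at 88.01 against 6.18 normalized counts, CD140a(+)/Sca1(-) first, 14.2-fold (6.73 to 36.1). Sfrp5, a secreted Wnt antagonist, was at 56.5 against 3.53, 16.01-fold (6.04 to 60.1), with 4 reads in CD140a(+)/Sca1(+). Moxd1 was at 90.6 against 13.2 and Sox9, a regulator of cartilage and nerve-associated fibroblasts, at 173 against 44.1. Ngfr is shared with the Schwann list. Slc2a1, the glucose transporter of the perineurial barrier, did not share the direction, at 1442 against 640.5 with CD140a(+)/Sca1(+) first, a difference of 1.16. Slc2a1 is not specific to perineurial cells and is also found on barrier endothelium.

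Some tendon genes were also higher in CD140a(+)/Sca1(-). Of 23 listed genes 9 were kept, 4 were at least 3-fold lower in CD140a(+)/Sca1(+), none was higher, and the median difference was -1.25 over the kept genes and -0.82 over all 23 measured. Fmod (fibromodulin), a proteoglycan that controls collagen fibril width in tendon, was at 426 against 44.1, 9.65-fold (7.23 to 13.1) higher in CD140a(+)/Sca1(-). Tnmd (tenomodulin), the most specific surface marker of tendon cells, was at 160.0 against 20.3, 7.88-fold (5.13 to 12.7). Col11a1, a minor fibrillar collagen, was at 134 against 20.1 and Thbs4 (thrombospondin 4), a matrix protein of muscle-tendon junctions, at 237 against 51.2. The lineage factor Scx (scleraxis) was near 0 in both, with 0.642 normalized counts in CD140a(+)/Sca1(-) and listed at 0 in CD140a(+)/Sca1(+). Mkx, the other tendon factor, was at 17.99 and 1.77.

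General fibroblast genes that were called were mostly higher in CD140a(+)/Sca1(-). Of 34 genes on the list of fibro-adipogenic precursor and fibroblast markers 15 were kept, 4 were at least 3-fold lower in CD140a(+)/Sca1(+) and 1 was higher, with a median difference of -0.995 over the kept genes and -0.37 over all measured members. Dcn (decorin), a collagen-binding proteoglycan and a general fibroblast marker, was at 3552 against 524, 6.77-fold (6.22 to 7.39) higher in CD140a(+)/Sca1(-). Bicc1, an RNA-binding protein, was at 139 against 12.9 and Fbln1 (fibulin 1) at 114 against 16.7. Col1a1, a chain of type I collagen, was nearly level, at 1374 normalized counts in CD140a(+)/Sca1(+) and 1458 in CD140a(+)/Sca1(-). Its partner Col1a2 was at 1399 and 2620.1, and Col3a1 at 376 and 682. Tcf4, a transcription factor found in endothelium and other cells, was the member higher in CD140a(+)/Sca1(+), at 2819.8 against 617, 4.57-fold (4.25 to 4.92).

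Markers of the 2 broad classes of muscle fibroblast were looked at apart. Among markers of parenchymal fibroblasts, which lie between the fibers, 13 of 25 were kept, 6 were at least 3-fold lower in CD140a(+)/Sca1(+) and 1 was higher, and the median difference was -1.32 over the kept genes and -0.005 over all 25 measured. In summed counts the list took 0.433% in CD140a(+)/Sca1(+) and 0.421% in CD140a(+)/Sca1(-), slightly more in the former. In CD140a(+)/Sca1(+) most of this sum was the single gene Col4a1, with a difference of 1.28. Smoc2, a calcium-binding matrix protein, was at 571 against 28.2, 20.2-fold (14.2 to 29.7) higher in CD140a(+)/Sca1(-). Cxcl14, a chemokine made by these fibroblasts, was at 1377 against 184, 7.47-fold (6.47 to 8.64). Apod, a lipid carrier, was at 2286 against 364, 6.28-fold (5.68 to 6.98). Lpl (lipoprotein lipase) was the member higher in CD140a(+)/Sca1(+), at 1205 against 242, and it is also on the capillary lipid list below. Among markers of adventitial fibroblasts, the progenitor-like cells around vessels, 9 of 25 were kept, 1 was higher and none was lower, and the median difference was -0.0050 over the kept genes and -0.26 over all 25. The former became positive once the median of all genes was set to 0. Procr, the protein C receptor and a progenitor marker, stood at 11701 and 11741 normalized counts, and the counting interval of their ratio held 1. Dpp4, another progenitor marker, was at 16.8 and 59.1, and Mfap5, an elastic fiber protein, at 202 and 573. In both classes the CD140a(-)/Sca1(+) library was often the highest, with Mfap5 at 4831.

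**Figure D2:**
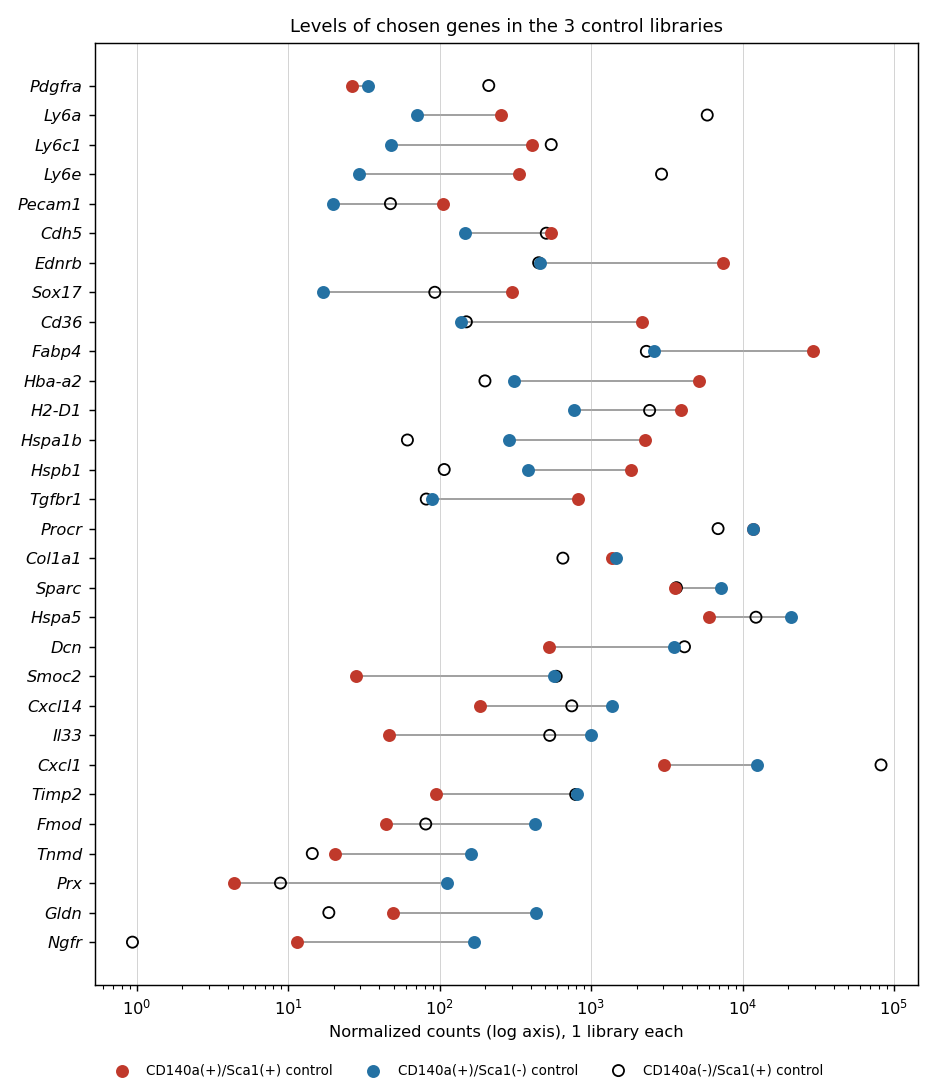
Normalized counts (x axis, log scale) of 30 genes (y axis) in the control libraries of CD140a(+)/Sca1(+) (red), CD140a(+)/Sca1(-) (blue) and CD140a(-)/Sca1(+) (open circles), 1 library each with no error bar. Ednrb stands at 7421 in CD140a(+)/Sca1(+) and at 464 in CD140a(+)/Sca1(-), whereas Gldn stands at 49.4 and 429.8.

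Genes of the matrix that were called were mostly lower in CD140a(+)/Sca1(+). Of 8 fibrillar collagens kept, 2 were at least 3-fold lower, Col11a1 and Col5a3, and none was higher. Of 9 other collagens kept, 3 were lower, namely Col16a1 at 86.2 against 1.52, Col6a3 at 212 against 26.1 and Col6a1 at 109 against 18.5 normalized counts, CD140a(+)/Sca1(-) first. Col16a1 binds to fibrils and the Col6 chains form the beaded filaments around cells. Col4a1, a chain of basement membrane collagen, had the opposite direction, at 5984 against 2449 with CD140a(+)/Sca1(+) first, a difference of 1.28 that stayed within 3-fold. Of 5 small leucine-rich proteoglycans kept, 3 were lower, Dcn, Fmod and Ogn, the last at 170.2 against 30.01, and the median difference was -2.15 over the kept genes and -0.67 over all 15 measured. Of 14 matricellular and adhesive glycoproteins kept, 6 were lower and none was higher, with a median difference of -1.11 over the kept genes and -0.800 over all 30 measured. Tgfbi, an integrin-binding protein, was at 346 against 35.3, 9.81-fold (7.11 to 13.9). Mgp, which inhibits calcification, was at 324 against 50.3, 6.45-fold (4.90 to 8.64), and Fn1 (fibronectin) at 401 against 89.4, 4.48-fold (3.64 to 5.60). Sparc, a collagen chaperone, was at 7215 against 3604, a difference of -0.999.

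Basement membrane genes were split. Of 8 laminin and basement membrane genes kept, 2 were at least 3-fold lower in CD140a(+)/Sca1(+), Smoc2 and the laminin chain Lamb2 at 163 against 30.9. Lamc1, the common laminin gamma chain, was at 420.3 against 275 with CD140a(+)/Sca1(+) first. Of 9 elastic fiber genes kept only Fbln1 was called. Of 23 proteases and inhibitors kept, 6 were lower and 2 higher, with a median difference of -1.08 over the kept genes and -0.67 over all measured members. The lower ones were led by the inhibitor Timp2, at 805 against 94.5, 8.52-fold (6.99 to 10.5), and held Timp3 at 2398 against 703, Timp1 at 77.5 against 13.3 and Mmp3, a stromelysin, at 543 against 129.8. Timp4, a vascular inhibitor, was higher in CD140a(+)/Sca1(+), at 126 against 16.8, 7.49-fold (4.95 to 11.96), and so was the lysosomal protease Ctsl, at 4278 against 1256, 3.41-fold (3.23 to 3.59).

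Several chemokines and cytokines of stromal cells were lower in CD140a(+)/Sca1(+). Of 34 chemokines, cytokines and related genes 19 were kept, 9 were at least 3-fold lower and 2 were higher, and the median difference was -1.24 over the kept genes and -0.74 over all 34. Il33, an alarmin that fibro-adipogenic precursors release to sustain regulatory T cells, was at 994 in CD140a(+)/Sca1(-) and 46.5 in CD140a(+)/Sca1(+), 21.4-fold (16.2 to 28.5). Cxcl1, which draws neutrophils, was at 12382 against 3035, 4.08-fold (3.93 to 4.23), and its neighbor Cxcl2 at 1039.7 against 252, 4.13-fold (3.64 to 4.70). Ccl2, which draws monocytes, was at 676 against 156, 4.33-fold (3.69 to 5.10), and Lif at 114 against 13.2, 8.59-fold (5.07 to 15.7). Cx3cl1 (fractalkine), a chemokine of endothelium, was higher in CD140a(+)/Sca1(+), at 53.3 against 3.61, 14.8-fold (5.96 to 38.9). The CD140a(-)/Sca1(+) library had 82158 for Cxcl1 and 9181 for Ccl2, the highest of the 3 control libraries for both. Of the 24 complement genes on the list 5 were kept and 2 of them were lower, Serping1 (the C1 inhibitor) at 163 against 36.2 and C1s1 at 99.3 against 20.8. Immediate early genes, which dissociation can induce, were close to level: 26 of 33 were kept, only Klf2 was higher and none was lower, with a median difference of 0.04 over the kept genes and 0.000 over all measured members.

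The genes of vascular endothelium that were called had the opposite direction, although cells with CD31 had been gated out. Of 39 listed genes 22 were kept, 13 were higher by at least 3-fold in CD140a(+)/Sca1(+) and none was lower, against 5.86% and 5.80% of all genes kept. The median difference of the 22 was 1.696, and over all 39 measured genes it was 1.46. Ednrb was at 7421 normalized counts in CD140a(+)/Sca1(+), and the libraries that lacked Sca1 or CD140a had 464 and 451, so the CD140a(+)/Sca1(+) library stood alone at 16.01-fold (14.8 to 17.3) over CD140a(+)/Sca1(-). Sox17 was at 302 against 17.1, 17.6-fold (11.8 to 26.8). Flt1 and Kdr, the receptors for VEGF, were at 468 against 53.4 and 154 against 28.9, with ratios of 8.76-fold (6.95 to 11.2) and 5.31-fold (3.81 to 7.55). Cdh5 (VE-cadherin), the adhesion molecule that defines endothelial junctions, was at 547 against 146, 3.74-fold (3.21 to 4.37), and it stood at 506 in CD140a(-)/Sca1(+). Emcn (endomucin), Cd93 and Esam, surface proteins of small vessels, were 6.80-fold, 8.27-fold and 7.82-fold higher. Eng (endoglin), shared by endothelium and stroma, was at 175 and 193. Lymphatic markers had another pattern, with Lyve1 at 27.4 and 53.3 and Prox1, which was below the limit for keeping, at 7.45 and 52.2.

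Most kept genes with which capillaries take up lipid were higher. Of 17 listed genes 12 were kept, 8 were higher by at least 3-fold in CD140a(+)/Sca1(+), none was lower, and the median difference was 2.25 over the kept genes and 1.74 over all 17. Fabp4, the carrier that binds fatty acids inside capillary and fat cells, was at 29146 against 2590.1, 11.3-fold (10.9 to 11.6). Cd36, the fatty acid translocase, was at 2164 against 139, 15.6-fold (13.6 to 18.01). Gpihbp1, which anchors lipoprotein lipase to capillary endothelium, was at 78.5 against 4.44, 17.7-fold (8.14 to 44.7), and Btnl9 at 117 against 13.5, 8.70-fold (5.47 to 14.5). Adipocyte markers were mixed. Of 21 listed genes 4 were kept, of which 1 was called higher and 2 lower. Their median difference was -0.45, and 0 over all 21 measured. Scd1 and Fasn, which make fatty acids, were lower in CD140a(+)/Sca1(+) at 22.1 against 266 and 78.7 against 310.4. They also belong to the fatty acid synthesis list below. Lipe, a lipase, was higher at 66.6 against 10.1. The adipocyte list took 0.0301% of the counts with Sca1, against 0.0410% without it. Fabp4 and Cd36 also belong to the list of adipogenic regulators and lipid storage genes. What part fat cells had in the lipid genes was not tested.

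Globin transcripts of red blood cells were higher in CD140a(+)/Sca1(+) as well, with 3 of 4 kept genes called. For the red blood cell list the median difference was 2.35 over the kept genes and 1.25 over all 10 measured. Hba-a2 was at 5172 in CD140a(+)/Sca1(+) against 309, 16.7-fold (15.2 to 18.4), and Hba-a1 at 2801 against 323, 8.67-fold (7.89 to 9.54). Hbb-bs and Hbb-bt, the beta globins, were at 3734 against 1205 and 443 against 143, with differences of 1.62 and 1.56. The 3' ends of the 2 alpha globin genes share 91.9% to 94.7% of their 31-base words, so reads can be split between them, and the beta globins share 57.3% to 66.0%. Alas2, which starts heme synthesis in red cells, was at 8.83 normalized counts and listed at 0 in CD140a(+)/Sca1(-), and Slc4a1, the red cell anion exchanger, was listed at 0 in both. In total the red blood cell list took 0.588% (0.578% to 0.598%) of the counts in CD140a(+)/Sca1(+), against 0.0969% (0.0936% to 0.100%) without Sca1.

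The shares of these lists in each library give their scale. Endothelial markers made up 0.661% (0.650% to 0.671%) of the counts in CD140a(+)/Sca1(+), against 0.0951% (0.0918% to 0.0985%) in CD140a(+)/Sca1(-), with 0.238% in CD140a(-)/Sca1(+). The capillary lipid list made up 1.71% (1.69% to 1.72%), 0.216% (0.211% to 0.221%) and 0.177% in the same order, and in CD140a(+)/Sca1(+) most of it was Fabp4. Likewise, most of the endothelial share in CD140a(+)/Sca1(+) was the single gene Ednrb. Lists of other cells that the gate or the tissue could leave behind were low in both CD140a(+) libraries: leukocyte and myeloid markers at 0.0102% in CD140a(+)/Sca1(+) and 0.0116% in CD140a(+)/Sca1(-), with 16 and 21 of 38 genes listed at 0, satellite cell markers at 0.0219% and 0.0461%, and muscle fiber genes at 0.00984% and 0.00378%, with 12 of 30 at 0 in each. Adgre1, C1qa, C1qb, Cd74 and Cd52 of the leukocyte list, Cdh15 of the satellite cell list, Myh2 of the fiber list and Aplnr of the endothelial list were at 0 in both. Only Csf1r of the leukocyte list and Ttn of the fiber list were kept, and neither was called. Kit of the leukocyte list, below the limit for keeping, was higher in CD140a(+)/Sca1(+), with its values given at the end. Trdc, a T cell gene outside the list, stood at 135 normalized counts in CD140a(+)/Sca1(+) and was called higher in CD140a(+)/Sca1(-), at 678. Without the endothelial, capillary lipid, red blood cell and Schwann lists, 291 genes were higher and 299 lower among 5325, counts chosen after the data were seen. What part cells of these types had in the other differences was not tested.

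**Figure D3:**
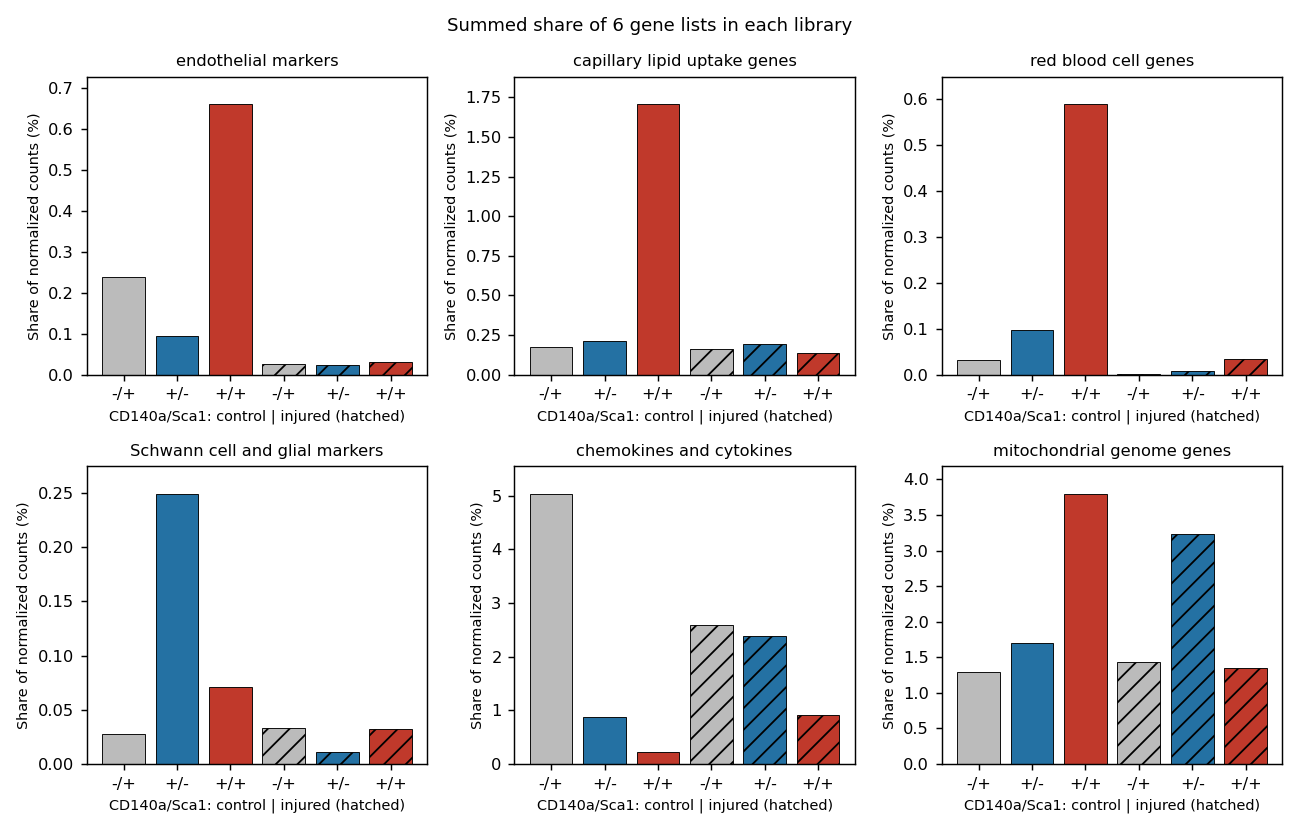
Share of all normalized counts (y axis, percent) taken by 6 gene lists in each of the 6 libraries, 1 bar per library, with CD140a(-)/Sca1(+) in gray, CD140a(+)/Sca1(-) in blue and CD140a(+)/Sca1(+) in red, and injured libraries hatched. The control CD140a(+)/Sca1(+) library has the highest bar for endothelial (0.661%), capillary lipid (1.71%), red blood cell (0.588%) and mitochondrial genes (3.80%), and the control CD140a(+)/Sca1(-) library for Schwann cell genes (0.249%). In control CD140a(+)/Sca1(+), most of the endothelial bar is Ednrb and most of the capillary lipid bar is Fabp4.

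Few markers of the mural cells of vessels were called. Of 25 pericyte and smooth muscle markers 10 were kept, 1 was higher and 1 lower, with a median difference of -1.16 over the kept genes and -0.597 over all 25. Rgs5, which marks pericytes, was at 465 against 88.01, 5.29-fold (4.37 to 6.43) higher in CD140a(+)/Sca1(+), and Notch3, below the limit for keeping, was at 38.8 against 7.71. The pericyte genes Angpt2 and Abcc9, not called, were at 499.6 against 276 and 11.2 against 4.35 in the same order. Cspg4, another pericyte marker that was not called, had the other direction, with a difference of -1.37. Of the 10 genes kept, 2 lay above 0 and 8 below. Contractile genes were not called either and were also lower in CD140a(+)/Sca1(+). Acta2 (smooth muscle actin) was at 749.7 against 275, Tagln at 197 against 97.1 and Tpm2 at 71.4 against 17.7, CD140a(+)/Sca1(-) first. The ratio of normalized counts for Tpm2 was 4.03-fold (2.49 to 6.87), its log2 difference -1.55. Itga7, the laminin-binding integrin of myogenic and mural cells, was called lower in CD140a(+)/Sca1(+), at 6.87 against 98.4. Of 20 satellite cell and myoblast markers 4 were kept, Itga7 and Sdc4 were lower in CD140a(+)/Sca1(+) and none was higher. The median difference was -1.85 over the kept genes and 0.26 over all 20. The satellite cell factors Pax7 and Myod1 were near the floor. Pax7 was at 6.18 and 3.85 and Myod1 at 11.5 and 8.35, CD140a(+)/Sca1(+) first.

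Some relatives of Sca1 were higher, as Ly6a was. Of 20 Ly6 and other lipid-anchored surface genes 7 were kept, and 4 of them, Ly6e, Ly6c1, Gpihbp1 and Ly6a, were higher by at least 3-fold in CD140a(+)/Sca1(+). Ly6a encodes the antigen that the sort used, and Gpihbp1 is also on the capillary lipid list. Ly6c1, a marker of capillary endothelium and of adventitial progenitors, was at 406 against 47.5, 8.54-fold (6.67 to 11.1), and Ly6e, which is widely expressed, at 333 against 29.5, 11.3-fold (8.30 to 15.7). In CD140a(-)/Sca1(+) they stood at 546 and 2921. The ends of Ly6c1 share 43.1% of their 31-base words with the other members examined, Ly6a 17.9% and Ly6e none, so part of the Ly6c1 reads cannot be assigned with certainty. Procr, Cd24a and Cd59a, which belong to the same list, were not called, with Cd24a at a difference of 0.07 and Cd59a at -1.09. The median difference was 1.69 over the 7 kept, which is the value of Ly6a itself, and 0 over all 20 measured.

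Several MHC class I genes were higher in CD140a(+)/Sca1(+). Of 41 interferon and MHC class I genes 8 were kept, 5 of them were at least 3-fold higher and none was lower. The median difference was 1.68 over the kept genes and 0.57 over all 41. H2-D1, a classical class I heavy chain, was at 3949 against 775, 5.10-fold (4.78 to 5.44), and its light chain B2m at 2010.0 against 621, 3.24-fold (3.003 to 3.50). H2-K1 and H2-Q7 were at 132 against 29.2 and 61.9 against 12.5. Rsad2 (viperin), an antiviral enzyme, was at 212 against 21.2, 9.99-fold (6.93 to 14.9), and stood at 5931 in CD140a(-)/Sca1(+). Class I heavy chain genes are near-identical in places, so reads may be shared among them. Ifitm3, an interferon-induced membrane protein, was level at 302 and 326.

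Few chaperones were called, and in both directions. Of 20 heat shock and chaperone genes 19 were kept, 3 were higher in CD140a(+)/Sca1(+), Hspa1b, Hspb1 and Hspa1a, and 1 was lower, Hspa5. Hspa1b, an inducible Hsp70 of the cytosol, was at 2285 against 288, 7.94-fold (7.18 to 8.79), and its twin Hspa1a at 5592 against 1656, 3.38-fold (3.22 to 3.54). Hspb1 (Hsp27), a small heat shock protein, was at 1835 against 382, 4.80-fold (4.38 to 5.27). Of all 19, 11 lay above 0 and 8 below. Cytosolic chaperones not called lay on both sides, with differences of 1.103 for Hsp90ab1, 0.85 for Hspa8 and -0.75 for Cryab, and Hspa12a, an Hsp70 relative outside the list, was among the largest lower differences at -3.13. Hspa5 (BiP), the Hsp70 of the endoplasmic reticulum, was at 5969.7 in CD140a(+)/Sca1(+) and 20763 in CD140a(+)/Sca1(-), 3.48-fold (3.39 to 3.57) higher in the latter. The 3' ends of Hspa1a and Hspa1b shared no 31-base word.

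The promoters of 3 of these genes are shown because they carry the response elements that set the 2 kinds of chaperone apart in the textbooks. Each is the stretch of 150 bases before the start site, from RefSeq on GRCm38.p6, 5' to 3' on the gene's strand. Capitals mark pairs of heat shock units (GAANNTTC or TTCNNGAA, which read the same on both strands) in the first 2 and the endoplasmic reticulum stress element (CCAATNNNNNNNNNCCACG on either strand) in the third. They lie at chr17:34959239-34959388 on the minus strand for Hspa1b, at chr5:135887769-135887918 on the plus strand for Hspb1 and at chr2:34771940-34772089 on the plus strand for Hspa5.
Hspa1b: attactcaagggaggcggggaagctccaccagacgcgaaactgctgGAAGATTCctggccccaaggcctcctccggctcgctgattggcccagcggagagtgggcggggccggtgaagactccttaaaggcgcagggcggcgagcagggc
Hspb1: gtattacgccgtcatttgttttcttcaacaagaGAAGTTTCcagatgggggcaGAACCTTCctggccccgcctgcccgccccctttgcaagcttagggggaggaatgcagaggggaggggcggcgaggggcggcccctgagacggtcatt
Hspa5: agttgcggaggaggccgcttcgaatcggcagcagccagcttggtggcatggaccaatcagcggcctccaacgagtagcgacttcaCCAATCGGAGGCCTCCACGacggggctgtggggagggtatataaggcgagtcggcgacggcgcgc
The pair in Hspa1b starts 104 bases before the start site, those in Hspb1 117 and 97 bases before, and the element in Hspa5 65 bases before. In the 250 bases before the start site of 32851 mouse promoters, the heat shock pair was found in 12.8% and the stress element in 37, which is 0.113%. The pair was present for 8 of the 15 chaperone genes that had a promoter sequence. A gene counted if any of its promoters held the letters, whereas the 12.8% is a share of promoters. The stress element was present for 2 of the 15, Hspa5 and Hsp90b1. Of 33 genes of the endoplasmic reticulum list with a promoter sequence, 8 held the stress element, among them Hspa5, Hsp90b1, Calr, Canx and Pdia6. The heat shock pair was present for 4 of these 33. A match says only that these letters are in the window.

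Further genes of folding and export in the endoplasmic reticulum were lower in CD140a(+)/Sca1(+). Of 40 genes on a list that was added after the data were seen, 38 were kept, 13 were at least 3-fold lower and none was higher, with a median difference of -1.22 over the kept genes and -1.22 over all 40. The channel subunit Sec61g was at 4546 against 916 normalized counts, CD140a(+)/Sca1(-) first, 4.96-fold (4.65 to 5.30). The glycosylation enzyme subunit Rpn1 was at 1134 against 214, 5.29-fold (4.62 to 6.07), and the signal peptidase subunit Sec11c at 83.2 against 5.11, 16.3-fold (6.996 to 43.4). Calr (calreticulin) was at 3269 against 1302 and Canx (calnexin) at 1915 against 1143, with differences of -1.32 and -0.74. The list took 0.787% and 2.24% of the counts in the libraries with and without Sca1, and 1.45% in CD140a(-)/Sca1(+).

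The genes of sterol and fatty acid synthesis that were called had the same direction. Of 31 genes on a second added list 17 were kept, 8 were lower in CD140a(+)/Sca1(+) and none was higher, with a median difference of -1.53 over the kept genes and -0.86 over all 31. Scd1 and Scd2, which desaturate fatty acids, were at 266 against 22.1 and 210.1 against 15.01, with ratios of 12.1-fold (8.05 to 18.8) and 14-fold (8.61 to 24.3). Cyp51, a sterol demethylase, was at 423 against 66.2, 6.39-fold (5.03 to 8.23), and Hmgcs1, the entry enzyme of sterol synthesis, at 653 against 185, 3.52-fold (3.03 to 4.10). Of 19 S100 proteins and annexins, also an added list, 12 were kept and 5 were lower, led by S100a6 at 2434 against 304, 7.997-fold (7.16 to 8.95), and Anxa2 at 468 against 96.2, 4.87-fold (3.98 to 6.01).

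Growth factor pathways were mixed. Of 17 TGF-beta and BMP genes kept, 3 were higher in CD140a(+)/Sca1(+) and none was lower. Tgfbr1, the type I receptor, was at 819.8 against 88.8, 9.23-fold (7.73 to 11.1). Gdf15, a stress-induced ligand, was at 652 against 83.3, 7.83-fold (6.47 to 9.47), and Fst (follistatin), which blocks activins and myostatin, at 77.5 against 10.02, 7.74-fold (4.40 to 13.8). Inhba, the activin A subunit, was at 81.2 and 244, a difference of -1.46 that was not called, with a ratio of 3.01-fold (2.39 to 3.82). In the IGF system Igfbp6 was lower and Igf2, a growth factor made by stroma, was higher at 90.1 against 22.97, with the other 5 genes kept not called. Of 13 genes of the FGF, HGF, PDGF, VEGF and EGF families kept, Flt1, Kdr and Pgf (placental growth factor) were higher, Pgf at 149 against 30.3, and Egfr and Gdnf were lower, Egfr at 102 against 410.5. Of 15 adipogenic regulators and lipid storage genes kept, the 3 higher ones were Cd36, Fabp4 and Lpl and the lower one was Apod, each described above. Among 25 Wnt ligands and antagonists only Sfrp1 and Sfrp5 were kept.

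Of 22 mesenchymal transcription factors kept, Tcf4 was higher and Zeb2, Sox10 and Sox9 were lower. Of 7 integrins kept, Itga7 and Itgb8 were lower, Itgb8 at 20.3 against 90.6 with CD140a(+)/Sca1(+) first. Of 7 CCN and YAP target genes kept, Axl, a receptor kinase, and Lats2, a kinase that restrains YAP, were lower at 19.4 against 114 and 60.5 against 224. Of 12 quiescence genes kept, Txnip, which rises with glucose, was higher at 307 against 75.8, 4.05-fold (3.28 to 5.04), together with Igf2, and the inhibitor Cdkn1a was at 5471 against 2116, within 3-fold. Of 10 cell cycle genes kept only the replication gene Mcm2 was called, lower at 14 against 72.8. Of 18 metallothionein and redox genes kept only Prdx1, a peroxidase, was called, lower at 8056 against 24776.

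Ribosomal and mitochondrial transcripts serve as a reference for the shape of the libraries. Of 77 cytosolic ribosomal protein genes kept, 1 was higher, Rpl26 at 5695 against 471, and 1 lower, Rps21 at 1095 against 4173, with a median difference of -0.45. The 13 mitochondrial genome genes had a median difference of 1.11, and mt-Nd4, a subunit of complex I, was called higher at 10378 against 3119. Their summed share was 3.80% (3.78% to 3.83%) in CD140a(+)/Sca1(+) and 1.70% (1.69% to 1.72%) in CD140a(+)/Sca1(-).

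**Figure D4:**
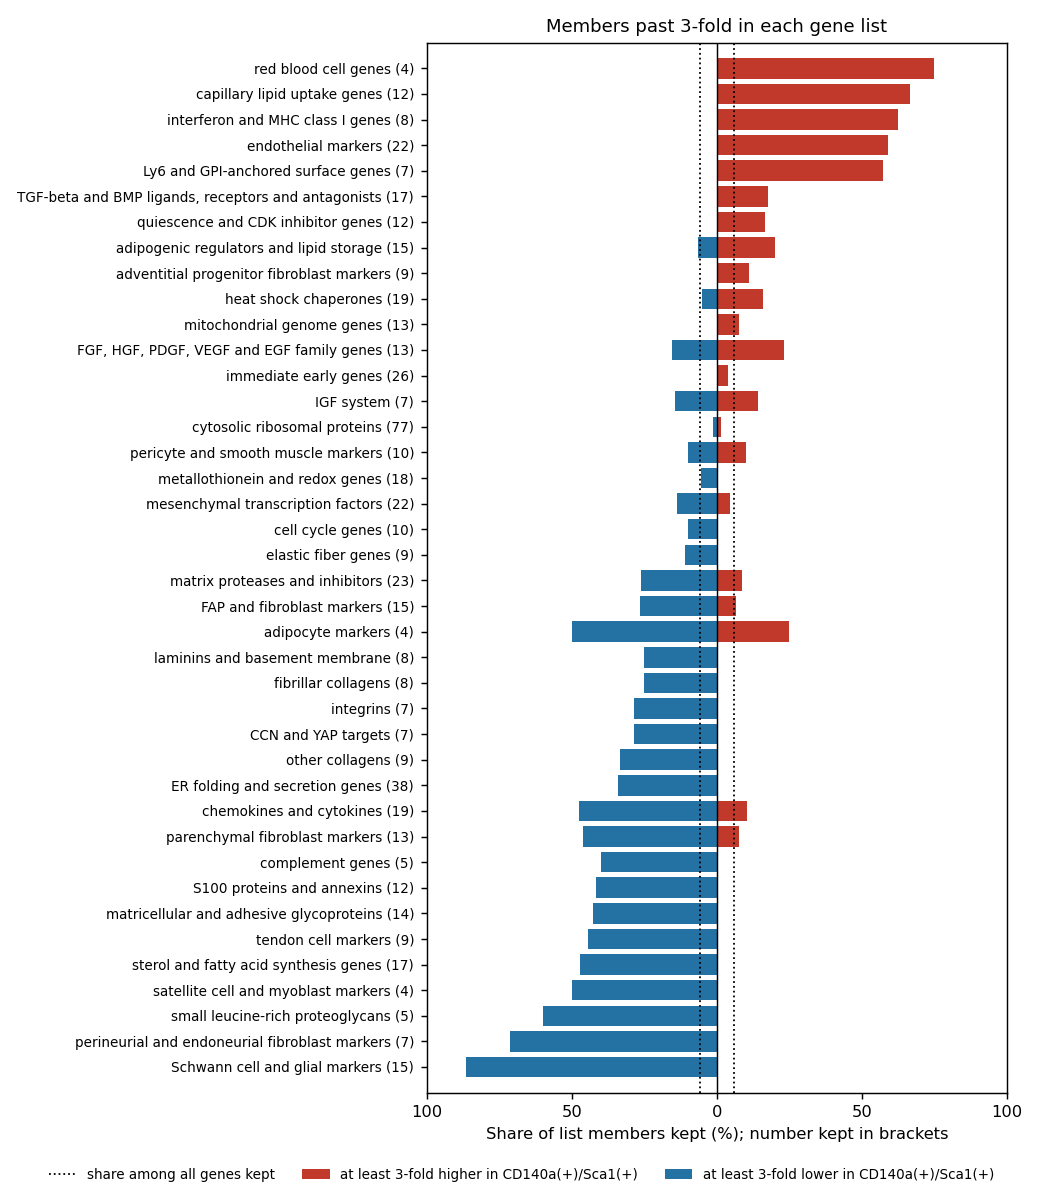
Share of the kept members of each gene list (x axis, percent) that were at least 3-fold higher (red, to the right) or lower (blue, to the left) in CD140a(+)/Sca1(+) than in CD140a(+)/Sca1(-), with the number kept in brackets and lists with at least 4 kept genes shown. Dotted lines mark 5.86% and 5.80%, the shares among all genes kept. Red blood cell, capillary lipid, MHC class I, endothelial and Ly6 lists extend to the right and Schwann, perineurial and proteoglycan lists to the left.

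Predicted genes and sensory receptor genes were frequent on the higher side. Predicted genes with Gm numbers and olfactory and vomeronasal receptor genes accounted for 162 of the genes kept, of which 62 were higher by at least 3-fold in CD140a(+)/Sca1(+) and 2 lower. Of 80 olfactory receptor genes kept 27 were higher and 2 lower, and of 22 vomeronasal receptor genes 12 were higher and none lower. All genes with such names, kept or not, took 7.30% of the counts in CD140a(+)/Sca1(+), against 1.71% in CD140a(+)/Sca1(-) and 1.02% to 1.68% in the other 4 libraries. Gm10800, singled out after its value was seen, was the most abundant gene of CD140a(+)/Sca1(+), at 41176 against 6019.9, 6.84-fold (6.69 to 6.99). Of the 31-base words in its last 500 bases 44.1% recur in the other predicted genes examined, so its reads cannot be assigned to 1 locus. Without these genes 253 were higher and 310 lower among 5216, and the higher share of the called genes was 44.9%.

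The same 2 sorts from injured muscle gave a second pair that shares no library with the first. Its CD140a(+)/Sca1(-) library was sparse, with no read for 69.1% of the genes where the others lacked 28.2% to 39.0%, and 1099 of the 5378 genes had no read. Over the 4276 genes with reads in both injured libraries, 790 were higher by at least 3-fold in CD140a(+)/Sca1(+), which is 18.5%, and 386 were at least 3-fold lower, which is 9.03%. Of the genes higher in the control pair, 183 could be compared, and 46 of them (25.1%) were higher and 27 (14.8%) lower after injury. Of the genes lower in the control pair, 219 could be compared, and 25 (11.4%) were higher and 42 (19.2%) lower. The median injured differences were 0.56 and -0.28 for these sets, against 0.14 for all 4276 genes. Since the number of genes at 0 differed so much between the 2 injured libraries, which genes could be compared depended on level, and no test was made.

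**Figure D5:**
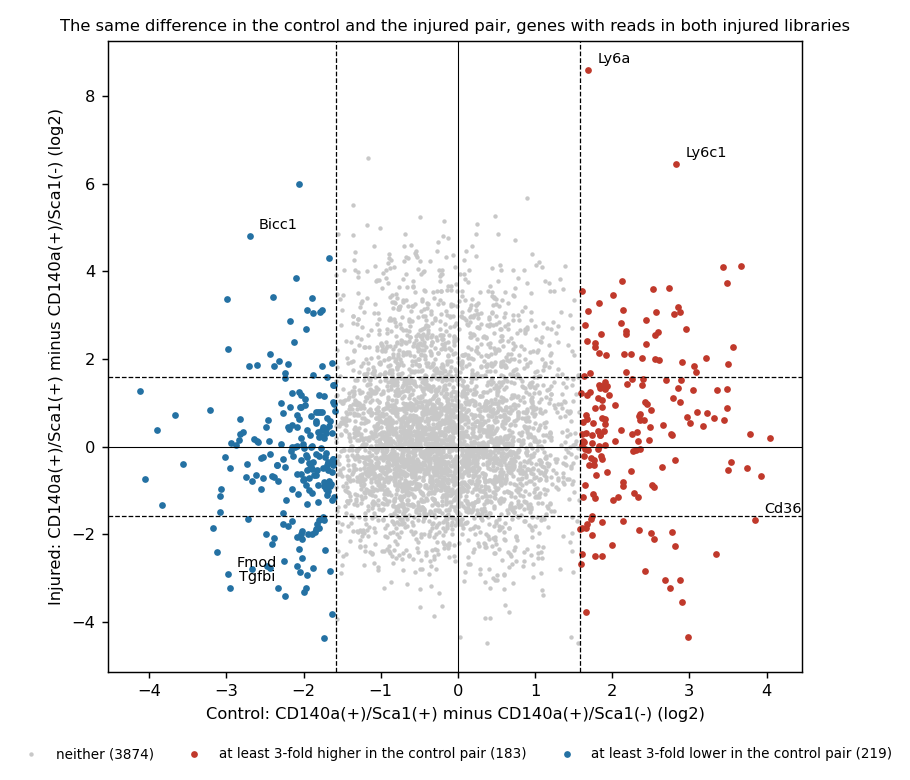
Difference between CD140a(+)/Sca1(+) and CD140a(+)/Sca1(-) in the control pair (x axis, log2) and in the injured pair (y axis, log2) for the 4276 genes with reads in both injured libraries. Red and blue points are genes at least 3-fold higher or lower in the control pair, and dashed lines are 3-fold. Of 183 red points 46 lie above the upper dashed line, and of 219 blue points 42 lie below the lower one.

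Ly6a had its larger difference after injury, at 4099 normalized counts in CD140a(+)/Sca1(+) and 2.09 in CD140a(+)/Sca1(-), where it had 2 reads, and the ratio was 1962-fold (578 to 17246). Ly6c1 was at 901 and 1.96, with a ratio of 459.5-fold (127 to 3795). The tendon genes Fmod and Tnmd were again lower in CD140a(+)/Sca1(+), Fmod at 75.2 against 639.9 and Tnmd at 21.2 against 200.2. The Schwann genes could hardly be compared, since 22 of 26 had no read in injured CD140a(+)/Sca1(-), where the list took 0.0110% of its counts, against 0.0323% in injured CD140a(+)/Sca1(+). Endothelial markers took 0.0308% and 0.0228% of the counts, below the 0.661% of control CD140a(+)/Sca1(+), and Ednrb was at 80.5 in injured CD140a(+)/Sca1(+) and listed at 0 in injured CD140a(+)/Sca1(-). Hspb1 was at 261 in injured CD140a(+)/Sca1(+) and listed at 0 in injured CD140a(+)/Sca1(-), and Hspa1a at 227 and 152. The chemokine Cxcl1 was again lower in CD140a(+)/Sca1(+), at 4527 against 26580.2. Il33 was at 1605 and 665, within 3-fold and in the other direction.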

How the data were processed

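QuantSeq libraries, whose reads come from transcript ends at the 3' side, were made from the RNA of sorted cells and run on an Ion Proton. The authors used FastX-Toolkit for trimming and STAR for alignment to GRCm38 (Ensembl annotation), counted reads with BRB-seqtools and normalized them with DESeq2, and deposited log2 values after size factors and a variance stabilizing transformation. Adapter handling and strand settings were not given in the sources used here. The transformation was inverted with the value of a gene with no read, 2.57. The inversion, the read size and the intervals were tested on simulated data made of whole reads only. That test does not cover values that are not whole reads. Of the low values, 55.8% to 63.7% per library lay within 0.02 of a whole read, so whole reads were not recovered and no count model was run. The intervals used reads rounded to whole numbers. Estimated depth ranged from 2094430 to 14171100 reads over the 6 libraries.

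Gene identifiers were matched to GENCODE M21 for 22453 of 22483 genes. With 1 library per group no test was made, and a fold of 3 on the deposited log2 scale defined a call. The rule for named genes took the sorted and gated antigens, the 20 largest differences in each direction among protein-coding genes with at least 100 normalized counts, and for each list up to 6 members by difference with at least 50 normalized counts and up to 4 by level, with markers of other cell types at any level. Members, the 41 gene lists and the rules were chosen with earlier results of these data known, and 3 more lists were added after the values were seen. Some list members are not reported here by name. Python 3.11.15 was used with numpy 2.4.6, pandas 2.3.3, scipy 1.17.1 and matplotlib 3.10.9. Intervals cover counting error only. Alternatives changed the pseudocount, the scaling, the filter and the fold.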

Additional observations from a re-analysis of the deposited data

Results flagged for a closer look

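Some named genes were at least 3-fold higher in one CD140a(+) pair and at least 3-fold lower in the other. Each value rests on single libraries, and the difference between the pairs was not tested. Higher in control CD140a(+)/Sca1(+) and lower in injured CD140a(+)/Sca1(+), relative to CD140a(+)/Sca1(-), were Cd36 with differences of 3.85 in control and -1.68 after injury, Gdf15 with 2.81 and -2.27, Igf2 with 1.59 and -1.89, S1pr1 with 1.59 and -2.67, and mt-Nd4 with 1.73 and -1.65. S1pr1, a receptor of endothelium, stood at 34.97 and 282 normalized counts in the injured libraries, and Cd36 at 89.3 and 312.

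Lower in control CD140a(+)/Sca1(+) and higher after injury were Bicc1 with differences of -2.700 and 4.802, Col6a3 with -2.598 and 1.86, Mcm2 with -1.79 and 3.08, Mlec with -2.06 and 5.998, Mmp3 with -1.97 and 2.69, Sdc4 with -2.44 and 2.105, and Sec11c with -2.702 and 1.84. In injured CD140a(+)/Sca1(-), Mlec had 1 read, Bicc1 5, Col6a3 79, Mcm2 3 and Sec11c 4. The ratio for Mlec was 566-fold (101 to 22393) and for Mmp3, a protease that opens the matrix, 6.53-fold (6.04 to 7.07), the latter from 4365 against 668 normalized counts.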

How the results depend on the processing

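No paired analysis was possible because the control comparison has 1 library on each side, and no replicate could be left out. A fit over the control and injured pairs would treat the injured sorts as replicates of the resting ones and was not run. The counts of 315 higher and 312 lower genes stayed within 1.5 times under pseudocounts of 1 and 5, median centring, 75th percentile scaling and a filter at a value of 5. They became 147 and 105 with a filter at a value of 8, 581 and 551 with no filter, and 205 and 191 with a mean value of at least 6. They became 651 and 975 at 2-fold and 131 and 86 at 5-fold. Among alternatives chosen after seeing the data, a counting interval wholly beyond 3-fold in normalized counts was found for 265 and 242. These were counted over all genes kept, called or not. Of 152 named genes called, all 152 were called at a pseudocount of 1 and 141 after median centring, and none changed direction. Of 10 lists with a median beyond 3-fold, all 10 stayed so under both. The median of the 2 Wnt genes kept went from -1.38 to -2.03 at a pseudocount of 1. Medians of 3 lists near 0 changed sign after median centring, those of the adventitial, TGF-beta and BMP, and FGF, HGF, PDGF, VEGF and EGF lists.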

Other observations

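Apart from Kit, a member of the leukocyte list, the genes given here lie outside the lists and the naming rule. Those outside were chosen after their values were seen. Dll4, a Notch ligand of arterial endothelium, was at 114 normalized counts in CD140a(+)/Sca1(+) where CD140a(+)/Sca1(-) had 5.78, and Edn1, the ligand of Ednrb, at 252 against 41.1. Abcg2, an efflux pump of capillaries and of side population cells, was at 654 against 52.6, and Mef2c, a transcription factor of muscle and endothelium, at 338 against 37.9. Cd274 (PD-L1), an inhibitory ligand for T cells, was at 121 against 3.85 and stood at 319 in CD140a(-)/Sca1(+).

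Kit, a receptor on mast cells and progenitors, was at 43.3 against 2.57, below the limit for keeping. Syne1, a nuclear envelope protein, was at 651 against 72.6 in the control pair, whereas the injured pair had 15.7 in CD140a(+)/Sca1(+) and 526 in CD140a(+)/Sca1(-). Lrrc17, a secreted leucine-rich repeat protein, was the most abundant gene of control CD140a(+)/Sca1(-) with 3.22% of its counts, at 67287 against 16737 in CD140a(+)/Sca1(+), 4.02-fold (3.96 to 4.08).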
